A study of Mus musculus with 24 samples.

Results

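The 10 genes described here are *Nfe2l2*, which encodes the transcription factor NRF2, *Keap1*, which encodes its repressor, and 8 classical NRF2 targets: *Nqo1*, *Hmox1*, *Gclc*, *Gclm*, *Txnrd1*, *Srxn1*, *Slc7a11* and *Gsr*. They were taken from the expression table by gene symbol. All 10 were found among its 17094 genes, and all 10 were among the 12178 genes tested. They were followed through RNA sequencing of wild-type mouse primary chondrocytes, the cells that build and maintain cartilage matrix. The chondrocytes grew in the lower chamber of a transwell plate, either with primary dermal fibroblasts (co-culture) or alone (normal culture). Each culture was treated with the inflammatory cytokine interleukin-1β (IL-1β, 10 ng/ml, added 24 h after attachment) or left without it, and was collected 72 h or 36 h after that addition. The 8 groups of 3 libraries were thus IL-1β-treated co-culture, IL-1β-treated normal culture, untreated co-culture and untreated normal culture, each at 72 h and 36 h. Chondrocytes and fibroblasts were first kept in different media, the medium of the co-culture is not given in the sources used here, and the fibroblasts themselves were not sequenced here.

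NRF2 is the main switch of the cellular defence against oxidants and electrophiles. KEAP1 normally binds NRF2 and hands it to a CUL3 ubiquitin ligase for degradation. Oxidants and electrophiles modify cysteines of KEAP1, whereupon NRF2 accumulates, enters the nucleus, pairs with a small MAF protein and binds antioxidant response elements near its targets. The targets make glutathione, recycle thioredoxin and peroxiredoxins, reduce quinones and break down heme, and in cartilage they are studied mainly for their part in oxidative and inflammatory stress. Because NRF2 is controlled largely at the protein level, mRNA shows the regulator's transcript and its targets' output, not the amount of active NRF2.

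Each library was given as FPKM, fragments scaled to gene length and to the mapped fragments of the library, and the depth behind the values is unknown. All 8 chondrocyte markers examined reached 1 FPKM in at least 1 library, and *Col2a1*, the main cartilage collagen, lay between 112 and 804 FPKM. Of 9 macrophage markers only *Ptprc* stayed under 1 FPKM in every library. All 8 skeletal muscle markers and all 6 dermal fibroblast markers, several of which other mesenchymal cells express too, also reached 1 FPKM, whereas 4 of 5 endothelial markers never did. The libraries of IL-1β-treated normal culture at 72 h spread most, with a residual SD over all tested genes of 0.168 on the log2 scale, followed by IL-1β-treated co-culture at 72 h with 0.119; the other 6 groups lay between 0.0853 and 0.0994.

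Promoter sequence was available from RefSeq (GRCm38.p6) for 7 of the 10 genes, as the 250 bases before each annotated start. *Hmox1*, *Gclc* and *Gsr* had no entry. Both strands were searched for 3 motifs, and the 5 windows with a match are shown with the match in capitals because each holds a match to 1 of these motifs. The core of the antioxidant response element, TGACNNNGC, occurred before *Nfe2l2* (chr2:75704664-75704913, minus strand), *Gclm* (chr3:122245307-122245556, plus strand) and the second of 3 starts of *Txnrd1* (chr10:82858956-82859205, plus strand). It occurs in 10.2% of 32851 such mouse windows. Forms of this core with another base than C after TGA were not searched. The AP-1 motif TGANTCA (6.75% of windows) occurred at 2 places before *Srxn1* (chr2:152105274-152105523, plus strand). The motif TGATGNAA, a form of the element bound by ATF4 (3.45% of windows), occurred at 2 places before *Slc7a11* (chr3:50443614-50443863, minus strand). The windows, 5′ to 3′ on the strand of the gene, were:
Nfe2l2: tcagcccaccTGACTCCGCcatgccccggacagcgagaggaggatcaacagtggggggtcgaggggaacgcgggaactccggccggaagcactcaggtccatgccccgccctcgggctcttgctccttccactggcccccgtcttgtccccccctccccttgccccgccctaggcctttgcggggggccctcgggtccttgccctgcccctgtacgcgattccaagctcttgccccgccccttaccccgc
Gclm: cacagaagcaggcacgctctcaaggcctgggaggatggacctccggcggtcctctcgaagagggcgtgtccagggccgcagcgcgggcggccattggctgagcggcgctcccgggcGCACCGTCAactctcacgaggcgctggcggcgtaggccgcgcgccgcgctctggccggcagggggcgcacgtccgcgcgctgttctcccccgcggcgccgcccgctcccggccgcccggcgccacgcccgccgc
Txnrd1, second start: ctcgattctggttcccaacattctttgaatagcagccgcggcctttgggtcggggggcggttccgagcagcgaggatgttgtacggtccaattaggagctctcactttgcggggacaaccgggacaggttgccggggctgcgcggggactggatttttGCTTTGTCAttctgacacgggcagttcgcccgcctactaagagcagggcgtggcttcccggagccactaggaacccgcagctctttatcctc
Srxn1: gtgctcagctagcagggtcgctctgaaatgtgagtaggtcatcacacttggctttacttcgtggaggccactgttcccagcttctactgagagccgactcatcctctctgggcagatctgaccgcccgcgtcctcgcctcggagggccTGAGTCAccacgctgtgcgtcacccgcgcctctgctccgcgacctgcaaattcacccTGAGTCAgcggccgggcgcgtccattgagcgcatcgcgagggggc
Slc7a11: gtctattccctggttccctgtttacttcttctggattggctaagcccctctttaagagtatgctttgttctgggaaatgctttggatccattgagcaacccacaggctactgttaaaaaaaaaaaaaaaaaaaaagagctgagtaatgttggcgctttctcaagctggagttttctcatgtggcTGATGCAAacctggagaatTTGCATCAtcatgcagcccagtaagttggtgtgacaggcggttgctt
In *Nfe2l2* the match began 240 bases before the start, in *Gclm* 134 and in *Txnrd1* 92. The *Srxn1* matches began 102 and 45 bases before the start, and the *Slc7a11* matches 66 and 47 bases before it. The *Srxn1* match at 45 bases is followed by GC. Read with these bases, it differs from the searched TGACNNNGC only by G in place of C after TGA. The matches in *Gclm* and *Txnrd1* and the nearer one in *Slc7a11* lie on the opposite strand, so their capitals read as the reverse complement of the motif. No window held 2 different motifs as searched. The windows of *Keap1* and *Nqo1* and the other 2 starts of *Txnrd1* held no match, which says only that these letters are absent there.

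The first question was what IL-1β did to the 10 genes. Of the 10, 9 were higher in IL-1β-treated than in untreated chondrocytes in both cultures and at both times, and in each of these comparisons the 3 treated libraries lay above the 3 untreated ones. The exception was *Keap1*, which fell in normal culture at 36 h and did not pass the test in the other comparisons. Differences are between group means of log2(FPKM + 1), tested with limma across all tested genes, and a gene was called at a Benjamini-Hochberg adjusted p under 0.05. Of all tested genes, 18.5% were called higher at 72 h in co-culture, 23.1% at 72 h in normal culture, 23.4% at 36 h in co-culture and 25.9% at 36 h in normal culture, and 30.6%, 40.3%, 35.3% and 41.5% in the same order were called lower. Groups without overlap, treated above untreated, were found for 21.1%, 22.6%, 28% and 28.2% of genes in that order. The median difference of the 10 genes was 0.74 at 72 h in co-culture, 0.86 at 72 h in normal culture, 1.33 at 36 h in co-culture and 1.49 at 36 h in normal culture, while the median of all tested genes lay between -0.09 and -0.06. Whether the 3 libraries of a group stem from different cultures or mice is not recorded, and the p-values therefore reflect only how these libraries scatter, which may be technical. Cell markers moved with IL-1β as well. The summed chondrocyte markers were 234 FPKM with IL-1β and 937 FPKM without it in co-culture at 72 h, and 226 FPKM with IL-1β and 928 FPKM without it in normal culture at 72 h. At 36 h they were 159 FPKM with IL-1β and 619 FPKM without it in co-culture, and 148 FPKM with IL-1β and 551 FPKM without it in normal culture. The 8 chondrocyte markers were each called lower in all 4 comparisons. Summed skeletal muscle markers were 70.5 FPKM with IL-1β and 36.2 FPKM without it in co-culture at 72 h, and summed dermal fibroblast markers were 452 FPKM with IL-1β and 239 FPKM without it there. Both sums were higher with IL-1β in the other 3 comparisons too, but single markers were divided. All 8 skeletal muscle markers were called higher in both cultures at 72 h, while at 36 h 3 were called higher and 2 lower in co-culture, and 3 higher and 1 lower in normal culture. The dermal fibroblast sum was mostly *Lum*, with a median of 331 FPKM over the 24 libraries. Of the 6 dermal fibroblast markers 3 were called higher and 3 lower in co-culture at 72 h, 3 higher and 2 lower in normal culture at 72 h, and 4 higher and 2 lower in both cultures at 36 h. In bulk RNA fewer cells of a type and less RNA per cell cannot be told apart, and the part of these shifts in the results was not tested.

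**Figure D1:**
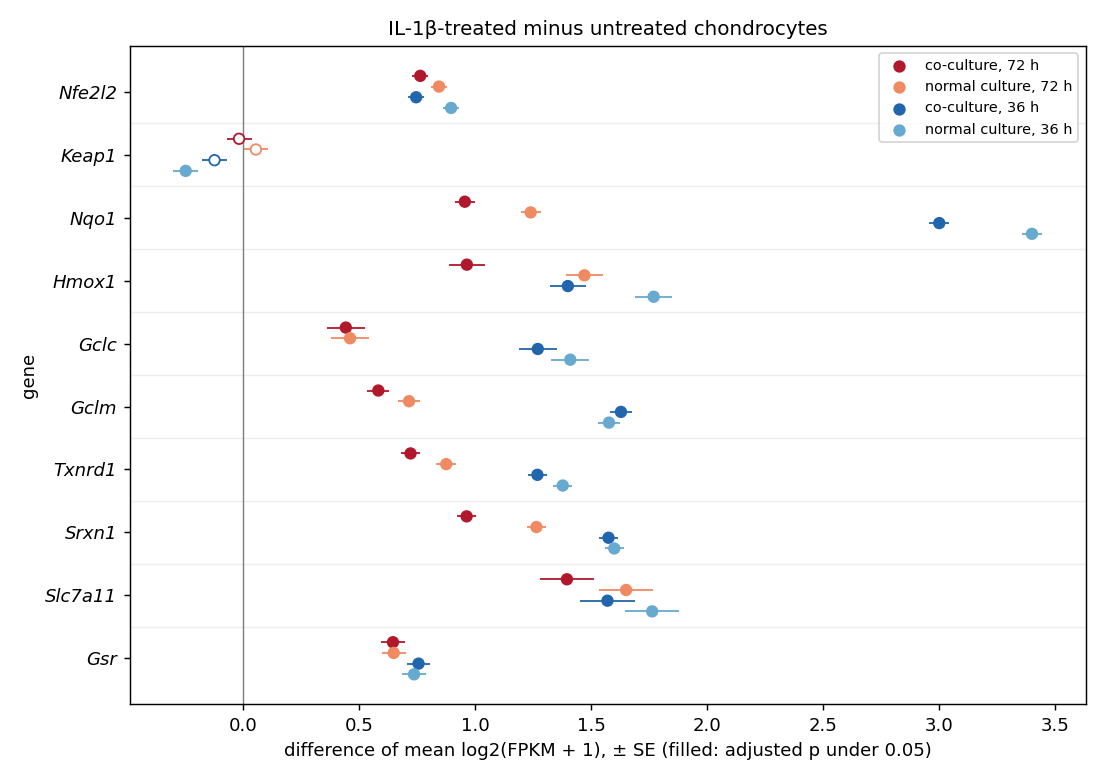
Difference of mean log2(FPKM + 1) between IL-1β-treated and untreated chondrocytes (x axis) for each gene (y axis), in co-culture and normal culture at 72 h and 36 h. Points are the differences, bars ± SE, and filled points have an adjusted p under 0.05. *Nqo1* stands out at 36 h with 3.00 in co-culture and 3.40 in normal culture, and *Keap1* lies near 0.

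*Nfe2l2* (chr2:75675513-75704641, minus strand; positions of genes are GENCODE, GRCm38) rose by a similar amount in all 4 comparisons. At 72 h it had 127, 123 and 117 FPKM in IL-1β-treated normal culture, against 65.2, 68.6 and 69.0 FPKM in untreated normal culture, a 1.81-fold ratio of means (log2 difference 0.84, SE 0.035, limma adjusted p = 3.1e-15). The 36 h values were 115, 116 and 118 FPKM in IL-1β-treated normal culture, against 62.4, 62.5 and 61.2 FPKM in untreated normal culture (log2 difference 0.90, SE 0.035, limma adjusted p = 9.18e-16). In co-culture the log2 difference was 0.76 at 72 h and 0.75 at 36 h. The transcript of the regulator was thus already above 60 FPKM in every untreated library, and treated and untreated libraries stood clearly apart.

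*Keap1* (chr9:21229730-21239361, minus strand) showed the smallest changes of the 10. In normal culture at 36 h *Keap1* had 18.8, 17.5 and 16.8 FPKM with IL-1β, against 22.5, 21.0 and 20.0 FPKM without it (log2 difference -0.25, SE 0.054, limma adjusted p = 3.44e-04). The treated libraries all lay below the untreated ones. At 36 h in co-culture the means were 18.7 ± 0.85 FPKM with IL-1β and 20.4 ± 0.35 FPKM without it (SD, n = 3 each), and the difference of -0.12 missed the threshold (limma adjusted p = 0.054). At 72 h the treated and untreated libraries overlapped in both cultures. The 95% interval of the log2 difference at 72 h was -0.13 to 0.09 in co-culture and -0.06 to 0.17 in normal culture. The *Keap1* calls moved with scaling: with libraries rescaled to equal sums it was called lower in co-culture at 36 h (-0.20, limma adjusted p = 0.00106), and with median-of-ratios scaling it was called higher in normal culture at 72 h (0.14, limma adjusted p = 0.0297).

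*Nqo1* (chr8:107388225-107403206, minus strand), a reductase that turns quinones into hydroquinones, had the largest change of the 10 at 36 h. *Slc7a11* had a larger log2 difference at 72 h in both cultures, and *Hmox1* in normal culture. In co-culture at 72 h *Hmox1* (0.964) and *Srxn1* (0.963) were close to *Nqo1* (0.956). So was *Srxn1* (1.26) to *Nqo1* (1.24) in normal culture at 72 h. Differences between genes were not tested. At 72 h *Nqo1* had 152, 159 and 170 FPKM in IL-1β-treated co-culture, against 81.8, 82.1 and 82.6 FPKM in untreated co-culture. At 72 h in normal culture it had 201, 182 and 193 FPKM with IL-1β, against 76.1, 82.1 and 84.0 FPKM without it. These are 1.95-fold and 2.38-fold ratios, and no treated library came near an untreated one. At 36 h *Nqo1* had 165, 166 and 169 FPKM in IL-1β-treated co-culture, against 19.8, 20.4 and 19.5 FPKM in untreated co-culture, an 8.36-fold ratio. At 36 h in normal culture it had 177, 179 and 184 FPKM with IL-1β, against 15.95, 16.21 and 16.21 FPKM without it, an 11.2-fold ratio (log2 difference 3.40, SE 0.044, limma adjusted p = 7.08e-24). The 4 treated groups had similar levels, while the untreated ones differed widely between the times.

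*Hmox1* (chr8:75093621-75100589, plus strand) encodes heme oxygenase-1, which breaks heme down to biliverdin, carbon monoxide and iron. At 72 h it had 255, 261 and 278 FPKM in IL-1β-treated co-culture, against 131, 132 and 143 FPKM in untreated co-culture (log2 difference 0.96, SE 0.079, limma adjusted p = 7.26e-10). At 72 h in normal culture it had 453, 316 and 355 FPKM with IL-1β, against 129, 131 and 140 FPKM without it (log2 difference 1.47, SE 0.079, limma adjusted p = 3.01e-13). Replicate 1 of IL-1β-treated normal culture was the highest of all 24 libraries. At 36 h the means were 247 ± 9.5 FPKM in IL-1β-treated co-culture and 93.1 ± 1.0 FPKM in untreated co-culture, and 257 ± 4.7 FPKM in IL-1β-treated normal culture and 74.6 ± 0.85 FPKM in untreated normal culture (SD, n = 3 each). Macrophages also express *Hmox1* strongly. The summed level of the 9 macrophage markers was 133 FPKM in IL-1β-treated co-culture and 101 FPKM in untreated co-culture at 72 h, and 128 FPKM in IL-1β-treated normal culture and 101 FPKM in untreated normal culture at 72 h. At 36 h it was 62.6 FPKM with IL-1β and 52.5 FPKM without it in co-culture, and 69.2 FPKM with IL-1β and 55.4 FPKM without it in normal culture, most of it *Lyz2*. Of the 8 macrophage markers tested, 1 was called higher and 7 lower in co-culture at 72 h, and 2 were called higher and 4 lower in normal culture at 36 h. The part of macrophages in the *Hmox1* values was not tested.

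Glutathione synthesis draws on cysteine, which cells take up largely as cystine, and its first and limiting step is the joining of glutamate and cysteine by glutamate-cysteine ligase. *Slc7a11* (chr3:49892526-50443614, minus strand), the cystine importer xCT, had the lowest level of the 10 genes. At 72 h it had 7.64, 6.83 and 5.72 FPKM in IL-1β-treated co-culture, against 1.81, 1.99 and 1.97 FPKM in untreated co-culture. At 72 h in normal culture it had 11.3, 7.45 and 6.6 FPKM with IL-1β, against 1.83, 2.10 and 1.90 FPKM without it, a 4.34-fold ratio (log2 difference 1.65, SE 0.118, limma adjusted p = 5.07e-11). Replicate 1 of IL-1β-treated normal culture again stood above the other two. Its 36 h means were 6.20 ± 0.30 FPKM in IL-1β-treated co-culture and 1.42 ± 0.067 FPKM in untreated co-culture, and 6.58 ± 0.68 FPKM in IL-1β-treated normal culture and 1.23 ± 0.11 FPKM in untreated normal culture (SD, n = 3 each). Its changes on the log2(FPKM + 1) scale, between 1.40 and 1.76, understate the ratios of 3.50 to 5.35 because the levels are near the added 1.

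*Gclc* (chr9:77754535-77794485, plus strand) and *Gclm* (chr3:122245557-122270732, plus strand) encode the catalytic and the modifier subunit of glutamate-cysteine ligase. At 72 h *Gclm* had 64.0, 62.8 and 65.1 FPKM in IL-1β-treated co-culture, against 41.5, 42.8 and 43.0 FPKM in untreated co-culture. The 36 h values were 68.3, 67.7 and 69.5 FPKM in IL-1β-treated co-culture, against 22.2, 21.0 and 21.2 FPKM in untreated co-culture (log2 difference 1.63, SE 0.047, limma adjusted p = 9.76e-18). The treated *Gclm* libraries of both cultures and times lay between 62.8 and 76.7 FPKM. *Gclc* was lower throughout, at 21.2 to 33.0 FPKM in treated libraries and 9.01 to 21.6 FPKM in untreated ones. Its log2 difference at 72 h was 0.44 in co-culture and 0.46 in normal culture, the smallest among the 9 genes that rose. The ratio of *Gclm* to *Gclc* FPKM averaged between 2.16 and 2.79 over the 8 groups. *Gsr* (chr8:33652523-33698163, plus strand), which reduces oxidised glutathione, rose modestly and evenly. Its log2 difference was 0.65 in both cultures at 72 h, 0.76 in co-culture at 36 h and 0.74 in normal culture at 36 h (limma adjusted p = 2.36e-11 for the last).

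*Txnrd1* (chr10:82833951-82897712, plus strand) encodes cytosolic thioredoxin reductase, and *Srxn1* (chr2:152105516-152111376, plus strand) encodes sulfiredoxin, which repairs overoxidised peroxiredoxins. At 72 h *Srxn1* had 65.2, 64.3 and 68.3 FPKM in IL-1β-treated co-culture, against 32.3, 33.6 and 34.2 FPKM in untreated co-culture. At 72 h in normal culture it had 80.8, 78.8 and 80.5 FPKM with IL-1β, against 31.6, 33.0 and 33.5 FPKM without it (log2 difference 1.26, SE 0.041, limma adjusted p = 3.54e-17). Its 36 h means were 60.2 ± 0.97 FPKM in IL-1β-treated co-culture and 19.5 ± 0.87 FPKM in untreated co-culture, and 64.0 ± 2.7 FPKM in IL-1β-treated normal culture and 20.4 ± 0.43 FPKM in untreated normal culture (SD, n = 3 each). The treated libraries were therefore about 3-fold above the untreated ones at 36 h, with ratios of 3.08 in co-culture and 3.13 in normal culture. *Txnrd1* had 129 to 140 FPKM in IL-1β-treated co-culture and 79.6 to 85.2 FPKM in untreated co-culture at 72 h. It ranged at 36 h over 97.2 to 101 FPKM in IL-1β-treated co-culture and 40.2 to 40.6 FPKM in untreated co-culture, a 2.44-fold ratio.

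**Figure D2:**
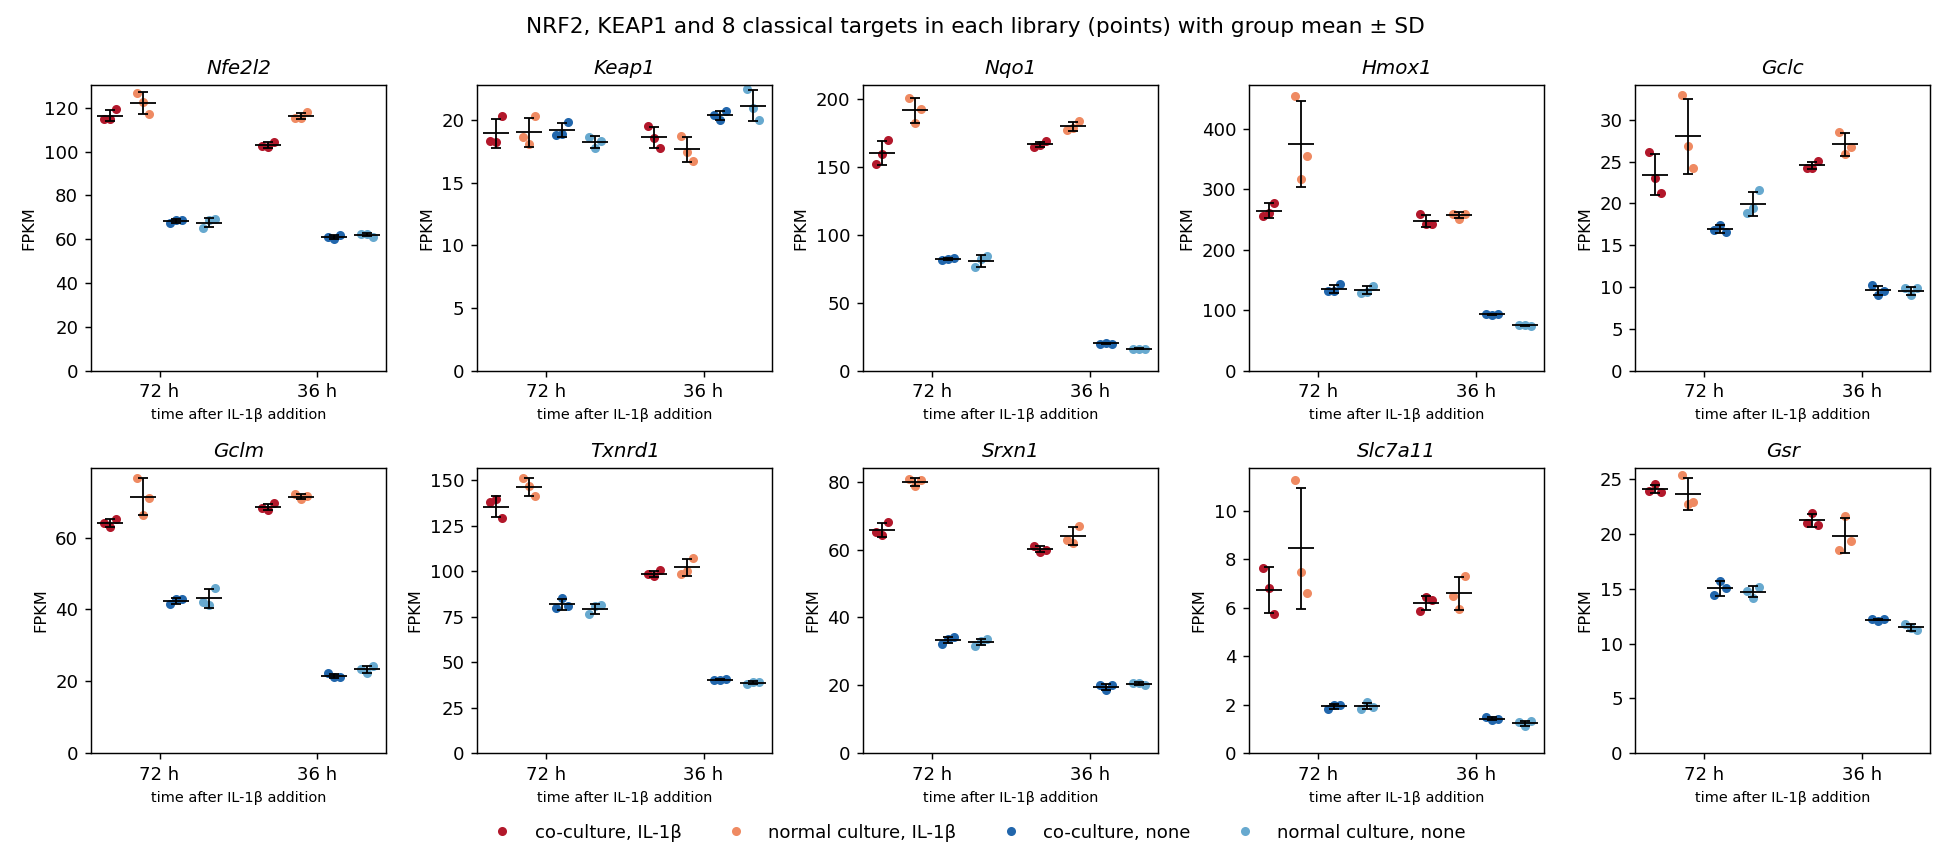
FPKM (y axis, from 0) of each gene in each of the 24 libraries at 72 h and 36 h (x axis), with points for libraries and black bars for group mean ± SD (n = 3). Within each culture and time, red and orange points (IL-1β) lie above blue ones (no IL-1β) for every gene but *Keap1*, and the untreated *Nqo1* level is about 80 FPKM at 72 h and under 21 FPKM at 36 h.

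The second question was how the levels and the IL-1β effect depended on time. In untreated normal culture 9 of the 10 genes were higher at 72 h than at 36 h and *Keap1* was lower, where 33.1% of all tested genes were higher and 25.3% lower. In untreated co-culture 8 were higher and none lower by the same limma test (36.6% and 24.9% of all genes), with *Keap1* and *Slc7a11* missing the threshold. *Nqo1* averaged 82.2 ± 0.43 FPKM at 72 h and 19.9 ± 0.46 FPKM at 36 h in untreated co-culture (SD, n = 3 each), a 4.12-fold ratio. In untreated normal culture it averaged 80.8 ± 4.1 FPKM at 72 h and 16.1 ± 0.15 FPKM at 36 h (SD, n = 3 each), a 5.01-fold ratio (log2 difference 2.25, SE 0.044, limma adjusted p = 2.43e-20). *Txnrd1*, *Gclc* and *Gclm* were 2.05-fold, 2.09-fold and 1.85-fold higher at 72 h in untreated normal culture. *Nfe2l2* itself was only 1.09-fold higher there (limma adjusted p = 0.00482). Cell markers shifted with time too. In both untreated cultures all 8 macrophage markers tested were called higher at 72 h and all 8 skeletal muscle markers lower. Summed skeletal muscle markers in untreated normal culture were 28.6 FPKM at 72 h and 139 FPKM at 36 h. Of 8 chondrocyte markers 3 were called higher and 2 lower there, and of 6 dermal fibroblast markers 2 higher and 3 lower. The part of these shifts in the results was not tested.

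Under IL-1β fewer of the 10 differed between the times. In IL-1β-treated normal culture 5 of the 10 were called higher at 72 h than at 36 h (37.1% of all genes) and none lower (32%), and in IL-1β-treated co-culture 4 were called higher (35.4%) and none lower (28.9%). *Nqo1* had a 72 h to 36 h ratio of 0.963 in IL-1β-treated co-culture and 1.07 in IL-1β-treated normal culture, and neither difference passed the test. *Txnrd1* had the largest rise of the 10 in IL-1β-treated co-culture, at 135.5 ± 5.7 FPKM at 72 h and 98.7 ± 1.7 FPKM at 36 h (SD, n = 3 each). The rise of *Slc7a11* in IL-1β-treated normal culture (log2 difference 0.29, limma adjusted p = 0.0344) rested on replicate 1 at 72 h, and without it the difference was 0.08 (adjusted p = 0.404).

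The change of the IL-1β effect between the times was tested directly as a difference of differences, 72 h minus 36 h. It was negative and called for 6 genes in each culture, *Nqo1*, *Gclc*, *Gclm*, *Txnrd1*, *Srxn1* and *Hmox1*. Among all tested genes 14.8% were called lower and 14.1% higher in co-culture, and 21.6% lower and 23.7% higher in normal culture. For *Nqo1* it was -2.05 in co-culture and -2.16 in normal culture (SE 0.062 each, limma adjusted p = 1.93e-16 in normal culture). For *Gclm* it was -1.05 in co-culture and -0.86 in normal culture, and for *Gclc* -0.83 in co-culture and -0.95 in normal culture. *Txnrd1* followed with -0.55 in co-culture and -0.50 in normal culture, and *Srxn1* with -0.61 in co-culture and -0.34 in normal culture. The *Hmox1* value in normal culture, -0.30 (limma adjusted p = 0.0326), was called in 5 of the 12 fits that each left out 1 library. *Keap1* had the opposite sign in normal culture, 0.30 (limma adjusted p = 0.00277). For *Nfe2l2*, *Slc7a11* and *Gsr* no change passed the test in either culture. The 95% interval for *Nfe2l2* was -0.08 to 0.12 in co-culture and -0.15 to 0.05 in normal culture.

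The third question was how co-culture with dermal fibroblasts differed from normal culture. The medium of the co-culture is not given, so an effect of the fibroblasts and one of the medium cannot be told apart. Far fewer genes differed between co-culture and normal culture than between treated and untreated cells. Among IL-1β-treated chondrocytes at 72 h, 4 of the 10 genes were lower in co-culture and none higher, where 5.26% of all tested genes were lower and 7.22% higher. *Hmox1*, with 255, 261 and 278 FPKM in co-culture against 453, 316 and 355 FPKM in normal culture, had a ratio of 0.705 (log2 difference -0.49, SE 0.079, limma adjusted p = 8e-04). *Srxn1*, with 65.2, 64.3 and 68.3 FPKM in co-culture against 80.8, 78.8 and 80.5 FPKM in normal culture, had a ratio of 0.824 (log2 difference -0.28, SE 0.041, limma adjusted p = 4.18e-04). *Nqo1* had a ratio of 0.836 (log2 difference -0.26, limma adjusted p = 0.00112) and *Gclm* one of 0.897 (log2 difference -0.15, limma adjusted p = 0.0372). For these 4 genes and for *Txnrd1* every co-culture library lay below every normal culture library, 5 of the 10 genes, which held for 8.23% of all tested genes. *Txnrd1* had 129 to 140 FPKM in co-culture and 141.5 to 151 FPKM in normal culture and was not called (log2 difference -0.11, limma adjusted p = 0.0827). *Gclc* and *Slc7a11* had differences of -0.24 and -0.26 with overlapping libraries, and *Keap1*, with -0.01, and *Gsr*, with 0.03, lay near 0.

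These 4 calls rested on the spread estimated over all 8 groups, and the 2 groups compared had the largest spread of the 8. When those groups alone were fitted, limma called none of the 10 genes, with adjusted p from 0.297 for *Srxn1* to 0.449 for *Gclm* among the 4. Same-numbered libraries of these groups deviated together, and with the replicate number as a block in that fit again none was called (limma adjusted p = 0.101 for *Srxn1*, 0.12 for *Hmox1*, 0.121 for *Nqo1* and 0.164 for *Gclm*). Over single left-out libraries, 3 to 8 genes were called: 8 without replicate 3 of IL-1β-treated normal culture, and 3 without replicate 1 of that group, where *Gclm* had an adjusted p of 0.208. The *Hmox1* difference was -0.34 without replicate 1 of IL-1β-treated normal culture and was called in each of these 6 fits. Summed macrophage markers at 72 h under IL-1β were 133 FPKM in co-culture and 128 FPKM in normal culture, and summed dermal fibroblast markers 452 FPKM in co-culture and 429 FPKM in normal culture.

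**Figure D3:**
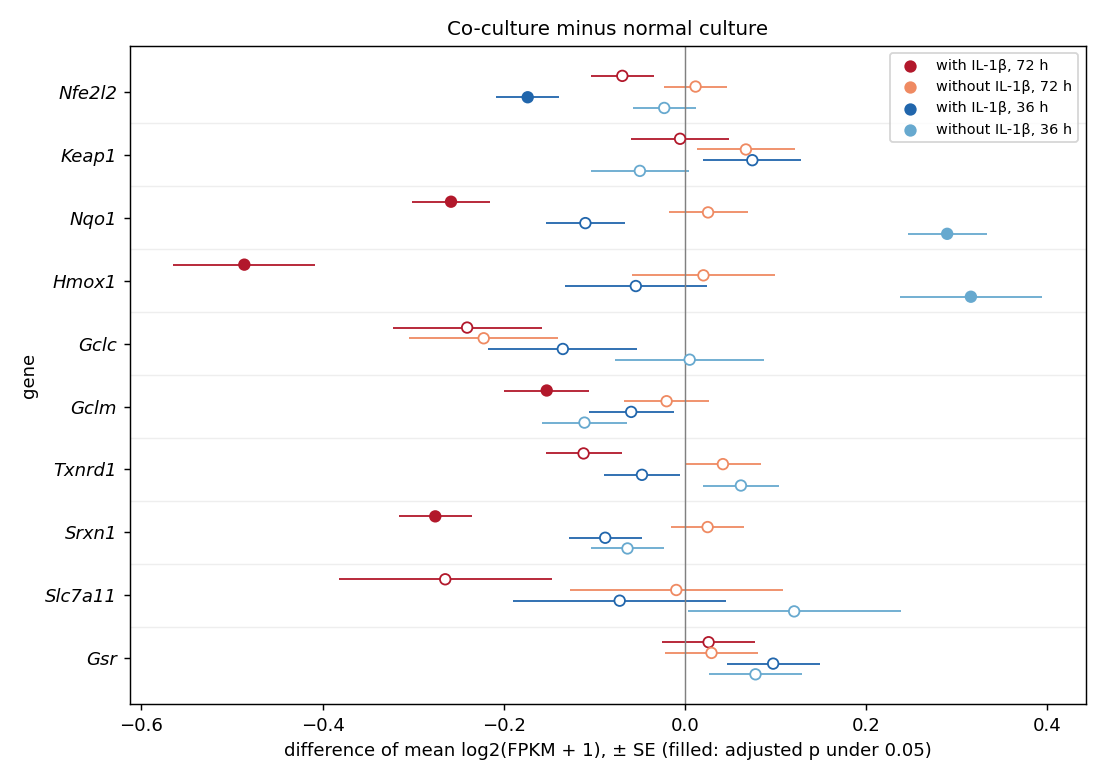
Difference of mean log2(FPKM + 1) between co-culture and normal culture (x axis) for each gene (y axis), with and without IL-1β at 72 h and 36 h. Points are the differences, bars ± SE, and filled points have an adjusted p under 0.05. *Hmox1* lies at -0.49 with IL-1β at 72 h and at 0.32 without it at 36 h.

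At 36 h under IL-1β only *Nfe2l2* was called between the cultures. It had 103, 102 and 104 FPKM in co-culture, against 115, 116 and 118 FPKM in normal culture, a ratio of 0.886 (log2 difference -0.17, SE 0.035, limma adjusted p = 0.00216; 4.17% of all genes were lower and 6.38% higher). For *Nqo1*, *Gclc*, *Gclm* and *Srxn1*, which were not called, every co-culture library also lay below every normal culture library there. The share of all tested genes that lay so was not counted. In untreated cells at 72 h none of the 10 was called by limma, where 1.72% of all genes were higher and 1.68% lower. *Gclc* had the largest difference there, -0.22 (limma adjusted p = 0.138), and it was called when those 2 groups alone were fitted (limma adjusted p = 0.0251). In untreated cells at 36 h *Hmox1* and *Nqo1* were higher in co-culture, where 6.28% of all genes were higher and 9.2% lower. *Hmox1* had 93.3, 92.0 and 94.0 FPKM in co-culture, against 75.3, 74.7 and 73.7 FPKM in normal culture, a ratio of 1.25 (log2 difference 0.32, SE 0.079, limma adjusted p = 0.00781). *Nqo1* had 19.8, 20.4 and 19.5 FPKM in co-culture, against 15.95, 16.21 and 16.21 FPKM in normal culture, a ratio of 1.24 (log2 difference 0.29, SE 0.044, limma adjusted p = 6.14e-05). For both genes, and for *Txnrd1*, *Slc7a11* and *Gsr*, which were not called, all 3 co-culture libraries lay above all 3 normal culture libraries, 5 of the 10 genes, as for 15.8% of all genes. *Gclm*, also not called, lay the other way, with all 3 co-culture libraries below all 3 normal culture libraries. For that direction the share of all genes was not counted. For the 8 genes not called in untreated cells at 36 h, the 95% intervals reached at most 0.37 in size. Summed dermal fibroblast markers there were 500 FPKM in co-culture and 644 FPKM in normal culture, and 3 of 6 were called lower, none higher. Summed chondrocyte markers were 619 FPKM in co-culture and 551 FPKM in normal culture, and 3 of 8 were called higher, none lower. The part of these marker differences in the results was not tested.

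Whether the response to IL-1β differed between the cultures was tested as the IL-1β effect in co-culture minus that in normal culture. At 72 h it was negative and called for *Hmox1* (-0.51, SE 0.111, limma adjusted p = 0.0179), *Srxn1* (-0.30, SE 0.057, limma adjusted p = 0.0082) and *Nqo1* (-0.28, SE 0.062, limma adjusted p = 0.0168), where 1.43% of all genes were lower and 1.68% higher. With those 4 groups alone none was called (limma adjusted p = 0.19 for *Hmox1*, 0.127 for *Srxn1* and 0.194 for *Nqo1*), and only *Srxn1* was called without replicate 1 of IL-1β-treated co-culture. At 36 h it was negative and called for *Nqo1* (-0.40, SE 0.062, limma adjusted p = 3.35e-04) and *Hmox1* (-0.37, SE 0.111, limma adjusted p = 0.0462), where 2.23% of all genes were lower and 4.73% higher. The *Hmox1* call at 36 h was lost in each of the 12 fits that left out 1 library, with adjusted p between 0.054 and 0.103. These contrasts share libraries with the comparisons above, so they restate the same measurements rather than add to them.

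A change of the co-culture effect between the times was called only for *Nqo1* without IL-1β and for *Hmox1* under IL-1β. Without IL-1β the effect at 72 h minus that at 36 h was -0.26 for *Nqo1* (SE 0.062, limma adjusted p = 0.013; 2.21% of all genes lower and 2.76% higher). Under IL-1β it was -0.43 for *Hmox1* (SE 0.111, limma adjusted p = 0.0391; 1.52% lower and 1.08% higher), a call kept in 4 of the 12 fits that left out 1 library.

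Ordered by level, the 4 treated groups preceded the 4 untreated ones for all members but *Keap1*. For *Hmox1* and *Srxn1* IL-1β-treated normal culture at 72 h was above the next group, IL-1β-treated co-culture at 72 h, while the neighbours among the other 3 treated groups did not differ beyond the spread. For *Nqo1*, *Gclc*, *Gclm* and *Slc7a11* no treated group differed from a treated neighbour in the order. The lowest treated group was above the highest untreated one. This order compares neighbours only. At 72 h IL-1β-treated co-culture was called below IL-1β-treated normal culture for *Nqo1* and *Gclm*, with the limits given above. For *Keap1* no pair of neighbours among the 8 groups differed. The lowest group was an untreated one at 36 h for each of the 9 genes other than *Keap1*. It differed from the next lowest for *Nqo1* and *Hmox1*, where it was untreated normal culture, and did not differ beyond the spread for the other 7.

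The rest of the pathway was read from 4 lists of genes. The shares of all tested genes called with IL-1β are repeated here for all 4 lists. At 72 h 18.5% were called higher and 30.6% lower in co-culture, and 23.1% and 40.3% in normal culture. At 36 h the shares were 23.4% and 35.3% in co-culture, and 25.9% and 41.5% in normal culture. Of 30 tested genes in a wider list of NRF2 targets, IL-1β raised 19 and lowered 3 at 72 h in co-culture, raised 21 and lowered 4 at 72 h in normal culture, raised 26 and lowered 1 at 36 h in co-culture, and raised 25 and lowered 1 at 36 h in normal culture. Their median differences were 0.27, 0.36, 0.91 and 0.88 in that order. *Fth1*, the ferritin heavy chain that stores iron, averaged 4206 ± 460 FPKM in IL-1β-treated normal culture and 1222 ± 59 FPKM in untreated normal culture at 72 h (SD, n = 3 each). *Gsta4*, a glutathione transferase for lipid aldehydes, turned with time: its log2 difference was -0.33 in co-culture and -0.64 in normal culture at 72 h, and 2.57 in co-culture and 2.04 in normal culture at 36 h, all 4 called. *Abcc1*, an exporter of glutathione conjugates, had 1.24 in co-culture and 1.57 in normal culture at 72 h, and *Glrx*, glutaredoxin, had 1.76 in co-culture and 1.90 in normal culture at 72 h. At 72 h under IL-1β 11 of the 30 were lower in co-culture than in normal culture and none higher by limma, led by *Ephx1* (-0.43) and *Abcc1* (-0.33). Of all tested genes 5.26% were lower and 7.22% higher there. The count of 11 was 5 without replicate 1 of IL-1β-treated normal culture, and 0 when those 2 groups alone were fitted.

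Among 9 tested partners and regulators of NRF2, the small MAF genes *Maff* and *Mafg* had the largest changes with IL-1β. *Maff* had a log2 difference with IL-1β of 1.35 in co-culture and 1.70 in normal culture at 72 h, and of 0.82 in co-culture and 1.57 in normal culture at 36 h. In untreated cells at 36 h *Maff* averaged 13.02 ± 0.28 FPKM in co-culture and 6.67 ± 0.44 FPKM in normal culture (SD, n = 3 each; log2 difference 0.87, limma adjusted p = 1.56e-08). *Mafg* rose by 0.72 in co-culture and 0.82 in normal culture at 72 h, and by 0.74 in co-culture and 0.86 in normal culture at 36 h. *Bach1*, a repressor that competes with NRF2 for antioxidant response elements, had a log2 difference with IL-1β of -0.23 in co-culture and -0.29 in normal culture at 36 h (limma adjusted p = 0.023 in co-culture and 0.00462 in normal culture). With IL-1β 4 of the 9 were called higher in each comparison. Called lower were 0 at 72 h in co-culture, 3 at 72 h in normal culture, 2 at 36 h in co-culture and 3 at 36 h in normal culture. The shares of all tested genes called lower were 30.6%, 40.3%, 35.3% and 41.5% in the same order.

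Antioxidant enzymes outside the NRF2 lists were divided. Of 13, IL-1β raised 8 and lowered 1 in both cultures at 72 h, and raised 6 and lowered 3 in both cultures at 36 h. *Sod2*, the mitochondrial superoxide dismutase and a familiar NF-κB target, averaged 89.6 ± 5.0 FPKM in IL-1β-treated normal culture and 12.6 ± 0.26 FPKM in untreated normal culture at 72 h (SD, n = 3 each). The 36 h means were 112 ± 6.3 FPKM in IL-1β-treated normal culture and 39.4 ± 1.3 FPKM in untreated normal culture (SD, n = 3 each). Its IL-1β effect was larger at 72 h than at 36 h, by 0.89 in co-culture and 1.24 in normal culture (limma adjusted p = 3.74e-12 in normal culture), opposite in sign to the change for *Nqo1*. *Sod3*, the extracellular superoxide dismutase, had log2 differences of 2.04 in co-culture and 2.25 in normal culture at 72 h.

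*Slc7a11* is a target of both NRF2 and ATF4, the transcription factor of the amino acid response, and the promoter window printed above holds the ATF4 motif. Most of the other ATF4 pathway genes were lower with IL-1β. Of 10 tested, IL-1β lowered 6 and raised 1 at 72 h in co-culture, lowered 7 and raised 1 at 72 h in normal culture, lowered 9 and raised none at 36 h in co-culture, and lowered all 10 at 36 h in normal culture by the same limma test. The median differences were -0.43, -0.47, -0.90 and -1.42 in that order. *Trib3*, a pseudokinase induced by ATF4, averaged 11.2 ± 0.42 FPKM with IL-1β and 52.0 ± 1.9 FPKM without it in co-culture at 36 h (SD, n = 3 each). In normal culture at 36 h it averaged 5.31 ± 0.89 FPKM with IL-1β and 42.8 ± 0.65 FPKM without it (SD, n = 3 each). *Chac1*, which degrades glutathione, had log2 differences of -1.49 in co-culture and -2.10 in normal culture at 36 h. Under IL-1β at 36 h 8 of these 10 genes were higher in co-culture than in normal culture and none lower by limma, with a median difference of 0.42. Of all tested genes 6.38% were higher and 4.17% lower there. The same difference for *Slc7a11* was -0.07 with a 95% interval of -0.32 to 0.17. The part of NRF2 and of ATF4 in the *Slc7a11* values was not tested.

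**Figure D4:**
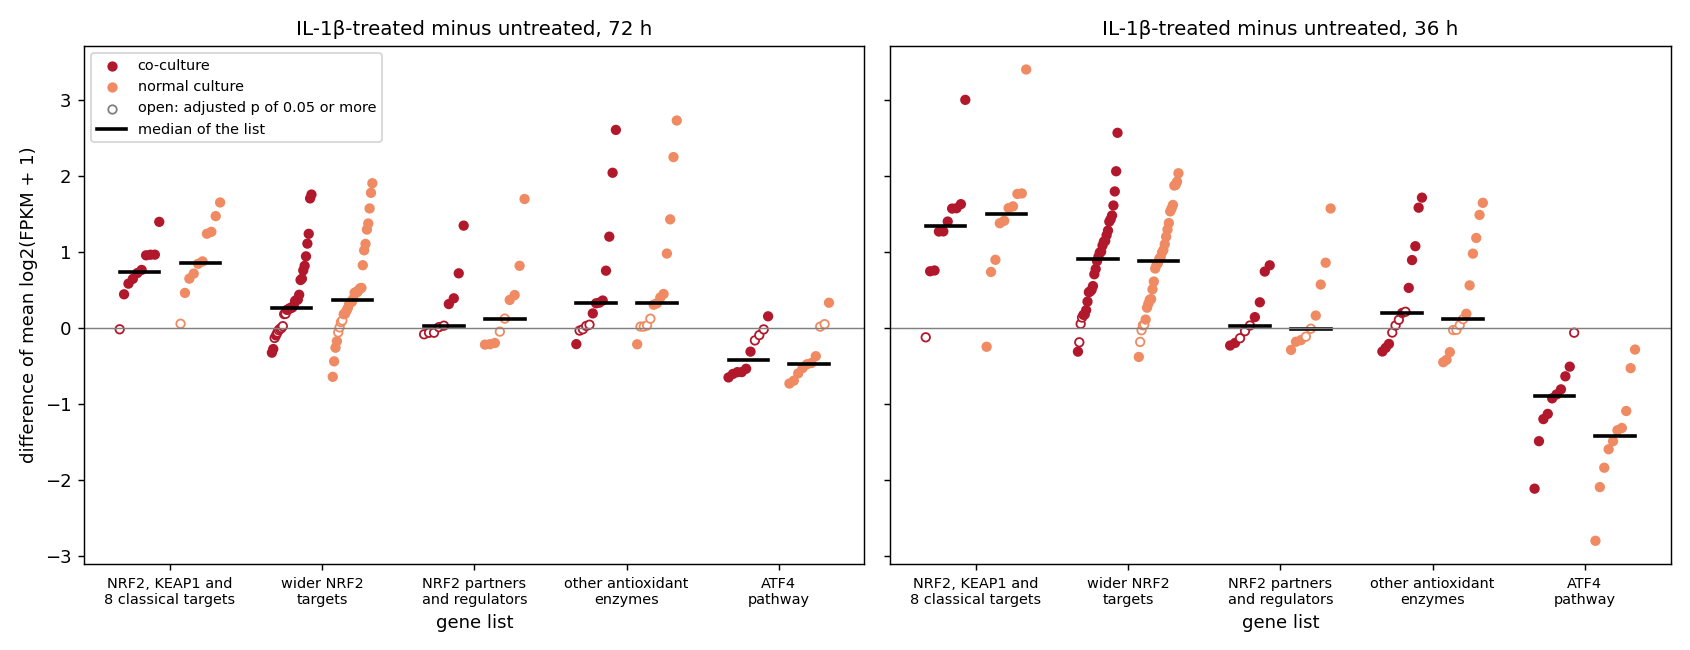
Difference of mean log2(FPKM + 1) between IL-1β-treated and untreated chondrocytes (y axis) for each of the 10 genes and of 4 further lists (x axis), in co-culture and normal culture at 72 h (left) and 36 h (right). Points are genes, filled where the adjusted p is under 0.05, and black bars are list medians. At 36 h in normal culture the median is 0.88 for the wider NRF2 targets and -1.42 for the ATF4 pathway.

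Genes with the most similar pattern over the 8 group means were sought among 2587 tested genes with a range of at least 1 on the log2 scale, each gene centred on its own mean. They are given for the 4 members with the widest range, with the root mean square difference as the measure. Nearest to *Nqo1* was *Ass1*, argininosuccinate synthase, at 0.10, which averaged 214 FPKM in IL-1β-treated normal culture and 92.7 FPKM in untreated normal culture at 72 h, and 201 FPKM with IL-1β and 18.9 FPKM without it at 36 h. The next genes, *Cck* at 0.32 and *Gdf15* at 0.33, were farther away. Nearest to *Hmox1* were *Abcb1a* at 0.11 and *Ptprn* and LOC115490111, both at 0.13. Nearest to *Slc7a11* were *Abcc1* at 0.10, *Lrrc8d* at 0.10 and *Abcc4* at 0.12, and nearest to *Srxn1* were *Abcc4* at 0.10, *Mmd* at 0.12 and *Mdm2* at 0.13. *Abcc1* and *Abcc4* encode exporters of conjugates and are themselves in the wider NRF2 list.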

How the data were processed

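The samples are 24 RNA-seq libraries of mouse chondrocytes, in 8 groups of 3 by culture, IL-1β and time, grouped by their labels. RNA was enriched for poly(A) before library preparation, per the labels' protocols. The authors deposited FPKM values per gene, and the submitters' processing notes name GRCm38; the aligner, counter and annotation are not given in the sources used here. FPKM do not carry read depth, so no counting error can be attached to them.

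From the deposited FPKM, log2(FPKM + 1) was fitted with limma 3.58.1 (trend option, R 4.3.3), with 1 mean per group over all 24 libraries, for the 12178 genes with at least 1 FPKM in at least 3 libraries. P-values were adjusted by Benjamini-Hochberg over all tested genes of each comparison. The method was tested on simulated data with independent libraries and 1 spread per gene shared by all groups. That setting lacks the wider spread of the IL-1β-treated groups at 72 h and libraries that deviate together. It therefore cannot speak to the calls between cultures under IL-1β at 72 h. The 10 genes and the other lists were chosen with earlier results of these data known. All 10 genes are described, and up to 4 called genes per list with the largest change are named. A gene so named in 1 comparison may be given in the others too. Genes of like pattern are those with the smallest root mean square difference over 8 centred group means.

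No 2 libraries held identical values. Same-numbered libraries of the 2 cultures under IL-1β at 72 h deviated together from their group means (correlation across genes 0.364, 0.179 and 0.577 for replicates 1, 2 and 3), while the labels name nothing that a number marks; in no other comparison did all 3 numbers exceed 0.1. Alternatives were another pseudocount and filter, rescaling to TPM, median-of-ratios scaling, group weights, the compared groups alone, a replicate block and leaving out each library. Group weights and the compared groups with the block were chosen after seeing the data. Promoters came from RefSeq.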

Additional observations from a re-analysis of the deposited data

Results flagged for a closer look

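The effect of IL-1β differed between the times by a direct limma test for the following genes, given as the log2 difference at 72 h minus that at 36 h with its adjusted p. In co-culture *Nqo1* had -2.046 (5.21e-16), *Gclm* -1.0464 (9.13e-11), *Gclc* -0.8279 (1.12e-05), *Srxn1* -0.6119 (3.88e-08), *Txnrd1* -0.5471 (3.56e-07) and *Hmox1* -0.4356 (0.0051). In normal culture *Nqo1* had -2.1617 (1.93e-16), *Gclc* -0.9497 (9.97e-07), *Gclm* -0.8624 (1.24e-09), *Txnrd1* -0.5024 (6.16e-07), *Srxn1* -0.3357 (6.45e-05) and *Hmox1* -0.2987 (0.0326), while *Keap1* had 0.3027 (0.00277). The *Hmox1* call in normal culture was kept in 5 of the 12 fits that left out 1 library.

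At 72 h the effect of IL-1β differed between the cultures, co-culture minus normal culture, for *Hmox1* by -0.507 (limma adjusted p = 0.0179), *Srxn1* by -0.3008 (0.0082) and *Nqo1* by -0.2839 (0.0168). None of these calls was kept when the compared groups alone were fitted. At 36 h the effect differed for *Nqo1* by -0.3996 (limma adjusted p = 3.35e-04) and *Hmox1* by -0.3701 (0.0462). The *Hmox1* call at 36 h was lost in each of the 12 fits that left out 1 library. The effect of co-culture differed between the times, 72 h minus 36 h, for *Hmox1* under IL-1β by -0.4323 (limma adjusted p = 0.0391) and for *Nqo1* without IL-1β by -0.264 (0.013). Of these 2, the *Hmox1* call was kept in 4 of the 12 fits that left out 1 library.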

How the results depend on the processing

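Over all combinations of comparison and alternative other than single left-out libraries, the count of the 10 genes called stayed within 1.5 times in 154, was lower in 10 and higher in 8, and no called value changed sign. The counts of IL-1β effects, and of 72 h against 36 h without IL-1β, stayed within that range under each alternative run. The co-culture counts moved. For co-culture under IL-1β at 72 h the reported count of 4 became 1 with group weights, 0 with the compared groups alone and 0 with those groups and the replicate block, with 3 to 8 over left-out libraries. The interaction at 72 h, reported count 3, became 1, 0 and 0 in the same order, with 1 to 3 over left-out libraries. The interaction at 36 h, reported count 2, became 1 without any single library. Co-culture without IL-1β at 72 h, reported count 0, became 1 in each of those 3 settings, and its time dependence, reported count 1, became 2 in each. Co-culture under IL-1β at 36 h, reported count 1, became 2 with group weights. The time dependence of co-culture under IL-1β, reported count 1, became 0 with no filter, with TPM and with the compared groups with or without the block, 2 with median-of-ratios scaling, and 0 to 2 over left-out libraries. The cause was not tested.

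Over all tested genes, co-culture under IL-1β at 72 h called 1520 genes as reported, 78 with group weights, 0 with the compared groups alone and 4 with the replicate block added. The interaction at 72 h called 379, 65, 12 and 20. TPM moved the all-gene median of the IL-1β effect at 72 h in normal culture to -0.20, against -0.08 as reported. The share of calls that were higher in that comparison was 36.4% as reported, 23.6% with TPM and 48.2% with median-of-ratios scaling.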

Other observations

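Without IL-1β the wider NRF2 targets also moved with time. Of 30 tested, 21 were higher and 1 lower at 72 h than at 36 h in untreated co-culture, and 20 were higher and 2 lower in untreated normal culture, by limma. Among all tested genes 36.6% were higher and 24.9% lower in untreated co-culture, and 33.1% and 25.3% in untreated normal culture. *Gsta4* averaged 29.0 ± 0.53 FPKM at 72 h and 7.34 ± 0.43 FPKM at 36 h in untreated co-culture, and 35.5 ± 1.0 FPKM at 72 h and 13.4 ± 1.6 FPKM at 36 h in untreated normal culture (SD, n = 3 each). *Gss*, glutathione synthetase, had a log2 difference of 1.12 in untreated co-culture and 1.10 in untreated normal culture. *Sod2* went the other way in untreated normal culture, with a log2 difference of -1.56.

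Between untreated co-culture and untreated normal culture at 36 h, 3 of the 30 wider targets were higher and 6 lower. Among all tested genes 6.28% were higher and 9.2% lower. *Gsta4* had a log2 difference of -0.78 (limma adjusted p = 2.91e-07) and *Fth1* one of -0.40 (limma adjusted p = 6.64e-04), opposite in sign to *Hmox1* and *Nqo1* in the same comparison.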
